A study of Homo sapiens with 4 samples.

Results

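The genes described here are ATF4, a set of genes that the ATF4 transcription factor is known to switch on, and the aminoacyl-tRNA synthetases. They were chosen by name: 27 symbols of ATF4 and its targets, and every gene of the platform annotation whose symbol is that of a tRNA synthetase. Of the 27, 14 were measured, and 17 synthetase genes were, which gives 31 of 14884 genes. Expression was measured in HUT78 cells, an established human T-cell line of cutaneous T-cell lymphoma, on 4 single-sample Affymetrix whole-transcript arrays. In 2 samples the cells had been treated with CSH71 at 250 nM for 30 h, and 2 samples were untreated. All 4 were grown in the same serum-containing medium. The series presents CSH71 as a chemical against p38γ, a mitogen-activated protein kinase, and names the lipid-binding domain of the kinase as the target. The titles of the CSH71 samples alone carry the tag (NCI), which the titles do not explain. The labels do not say whether the untreated cells received a vehicle, or whether replicates were separate cultures. The p-values therefore cover the scatter among these 4 samples alone, and that scatter may be technical. A lower level per cell and fewer cells with the transcript cannot be told apart in such bulk RNA.

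ATF4 is a transcription factor of the integrated stress response. Kinases that sense a lack of amino acids, unfolded proteins, haem shortage or viral RNA phosphorylate the initiation factor eIF2, which lowers protein synthesis in general while translation of the ATF4 messenger goes up. ATF4 protein then raises transcription of genes for amino acid synthesis and uptake, of stress effectors and of many cytosolic tRNA synthetases, the enzymes that load amino acids onto their tRNAs. Much of the control of ATF4 lies in translation, which arrays of RNA do not measure.

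ATF4 partners with C/EBP proteins on a composite element whose core is written here as TGATGNAA, where N is any base. This motif was searched on both strands of the 250 bases before each RefSeq start site (GRCh38.p14), and 26 of the 31 genes had an entry. It was present before at least 1 start of 4 of the 26 genes (15.4%), against 304 of the 10749 measured genes with an entry (2.83%). The genes were picked as known ATF4 targets and synthetases, so the higher share is no independent result. Those matches are shown because they are the only places in these windows where the letters of the element occur. Capitals mark the match, printed in the direction of the gene, so a match on the opposite strand reads in reverse complement. The stretches are chr7:97872459-97872486 on the minus strand for ASNS, chr7:30594835-30594862 on the plus strand for GARS1, chr16:70289676-70289703 on the minus strand for AARS1 and chr9:92293698-92293720 on the minus strand for IARS1.
ASNS: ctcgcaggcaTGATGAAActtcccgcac
GARS1: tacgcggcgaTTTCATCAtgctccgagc
AARS1: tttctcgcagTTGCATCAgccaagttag
IARS1: tttcagcgcgTTGCATCAcctcc

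The ASNS match lay 61 to 68 bases before the start and that of GARS1 26 to 33 bases before it. The AARS1 and IARS1 matches held the same 8 letters, 180 to 187 and 6 to 13 bases before their starts. A match is a description of the sequence and not evidence of binding. The cyclic AMP response element TGACGTCA was in 0 of the 26 genes' windows and in 2.74% of the measured genes' windows.

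The 250 bases before the starts of ATF4 and SESN2 are printed because those genes had the smallest p-values among the 31. Capitals mark TGACG, the core to which ATF and CREB proteins can bind, on either strand, so that a match on the opposite strand reads CGTCA. These letters also form the start of TGACGTCA. They were present in 9 of the 26 genes (34.6%), against 30.7% of measured genes, and the motif TGATGNAA was in neither of these stretches. ATF4 is at chr22:39520309-39520558 and SESN2 at chr1:28259268-28259517, both on the plus strand. ATF4 has 2 start entries, and only the one at the lower coordinate is printed.
ATF4: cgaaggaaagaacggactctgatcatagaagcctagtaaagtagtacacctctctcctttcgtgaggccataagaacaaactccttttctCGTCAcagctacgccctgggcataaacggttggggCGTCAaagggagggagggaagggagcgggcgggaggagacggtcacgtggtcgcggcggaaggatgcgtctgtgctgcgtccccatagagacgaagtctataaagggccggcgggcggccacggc
SESN2: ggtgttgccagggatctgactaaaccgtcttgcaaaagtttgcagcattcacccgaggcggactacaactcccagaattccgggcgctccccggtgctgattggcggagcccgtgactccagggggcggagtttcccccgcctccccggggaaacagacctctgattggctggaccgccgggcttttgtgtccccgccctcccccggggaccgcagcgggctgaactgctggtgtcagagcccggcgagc

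None of the 31 genes passed limma's test at an adjusted p under 0.05. Over all 14884 genes 7 passed, 0.0470% of those tested (0.0403% higher with CSH71), so 0 of 31 is near that background. At an unadjusted p under 0.05 there were 2 of the 31, SESN2 and ATF4, and both were higher in treated cells, against 3.20% of all genes higher and 5.10% in either direction. On both CSH71 arrays 9 of the 31 were higher than on both untreated arrays and 3 were lower, against 15.0% and 16.6% of all genes. The median log2 fold change of the 31 genes was 0.05, against -0.01 for all genes. Of the 31, 21 were positive and 10 negative, where 47.9% of all genes were positive. Without SESN2 and ATF4 the median of the other 29 was also 0.05. The count and median moved with single arrays: 17 were positive with a median of 0.03 without CSH71 replicate 1, 25 and 0.10 without CSH71 replicate 2, 17 and 0.0074 without untreated replicate 1, and 25 and 0.115 without untreated replicate 2. Fold changes here are CSH71 over untreated on the scale log2(intensity + 16), which understates the change of dim genes.

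**Figure D1:**
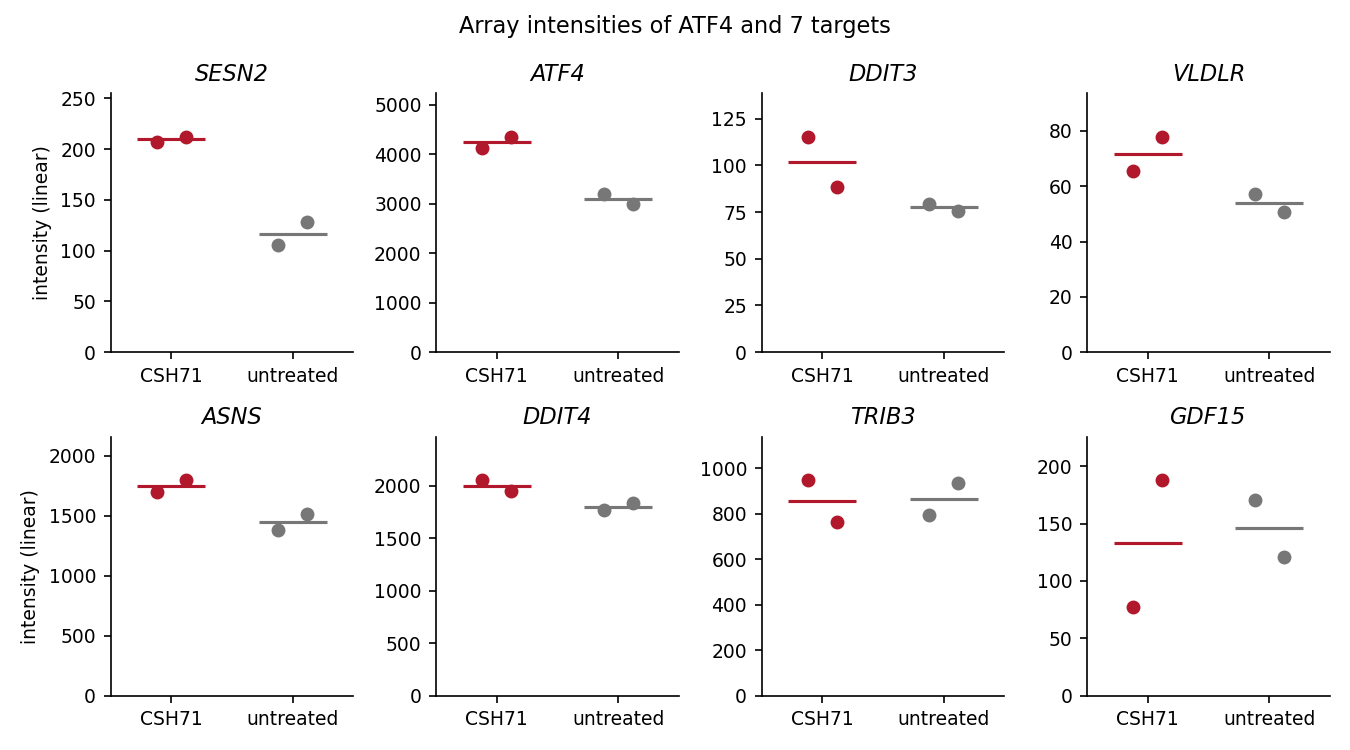
Linear array intensity (vertical axis, from 0) of ATF4 and 7 of its targets in CSH71-treated and untreated cells; each point is 1 array and each line the mean of 2. SESN2 and ATF4 have separate groups with little spread, while the TRIB3 and GDF15 points interleave.

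SESN2 encodes sestrin 2, a leucine-binding inhibitor of the growth kinase mTORC1 and a target of both ATF4 and p53. Its intensity was 207 and 212 on the CSH71 arrays, against 105 and 128 on the untreated arrays. Both treated arrays lay well above both untreated ones, and the treated pair were close to each other. The log2 fold change was 0.77 ± 0.18 (SE, n = 2 per group) with a 95% interval of 0.35 to 1.19. Standard errors and intervals of log2 fold changes are limma's, which combine the gene's own spread with that of all genes. SESN2 did not pass the test (adjusted p = 0.882, limma unadjusted p = 0.00352). Of all genes, 57 had a smaller p and 0.517% a larger fold change. Of its relatives, SESN1, also a p53 target, was at -0.34 ± 0.19 and SESN3 at 0.03 ± 0.16.

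ATF4 itself had intensities of 4134 and 4356 in treated cells, against 3195 and 2989 in untreated cells. The groups did not overlap, and the gap between them exceeded the distance within either pair. The means were 4245 ± 157 with CSH71 and 3092 ± 146 without it (SD, n = 2 each), a log2 fold change of 0.46 ± 0.17 with an interval of 0.06 to 0.85. Its limma p was 0.0302 and its adjusted p 0.930. An absolute fold change above that of ATF4 was found in 6.21% of all genes. The adjusted p ranged from 8.28e-09 to 1 over 13 other settings. The lowest came from a variance prior that follows intensity, the single setting in which ATF4 passed, as did 0.961% of all genes. In that fit the prior degrees of freedom were infinite, so the spread of ATF4's own arrays did not enter its p.

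The other measured factors of the pathway were DDIT3, ATF5 and TRIB3. DDIT3 encodes CHOP, a C/EBP-family factor linked to cell death under prolonged stress. Its intensity was 115 and 88.7 with CSH71, against 79.6 and 75.4 without. The groups did not overlap, but the treated arrays differed from each other by more than the lower of them did from the untreated arrays, and the log2 fold change of 0.33 ± 0.19 had an interval of -0.12 to 0.77 (limma adjusted p = 0.999).

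TRIB3 encodes a pseudokinase that feeds back on ATF4 and CHOP and is itself an ATF4 target. It gave 948 and 762 in treated cells, against 796 and 937 in untreated cells. The arrays interleave, and the log2 fold change was -0.02 ± 0.19, with an interval of -0.48 to 0.44. ATF5, a bZIP factor that is regulated much like ATF4, was at 200.0 and 179 with CSH71 and 178 and 194 without it, a log2 fold change of 0.02 ± 0.17. CEBPB, CEBPG and PPP1R15A were not analysed here.

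Among stress effectors other than SESN2, VLDLR and DDIT4 had groups that did not overlap. With SESN2 included, 3 of the 5 measured were higher on both CSH71 arrays and 0 lower, against 15.0% and 16.6% of all genes. VLDLR, a lipoprotein receptor, was dim, at 65.4 and 78.0 in treated cells, against 57.0 and 50.7 in untreated cells. Its log2 fold change was 0.33 ± 0.18 (interval -0.09 to 0.75). DDIT4, also called REDD1, restrains mTORC1 through the TSC complex. It was at 2054 and 1951 with CSH71, against 1765 and 1834 without. All 4 arrays lay within a narrow range, and the log2 fold change was 0.15 ± 0.17 (interval -0.24 to 0.55).

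STC2, which encodes the secreted glycoprotein stanniocalcin 2, had overlapping groups, with 318 and 250.3 in treated cells and 231 and 281 in untreated cells (log2 fold change 0.14 ± 0.20). GDF15, a secreted cytokine of the TGF-β family, was the most variable of the 31 genes. It was at 77.7 and 188 with CSH71, against 171 and 121 without. The treated pair spanned the untreated pair, and the log2 fold change of -0.21 ± 0.36 had an interval of -1.07 to 0.65, which holds a 2-fold difference in the negative direction. CHAC1 was not analysed here.

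Of 5 measured amino acid and one-carbon enzymes, 1, ASNS, was higher on both CSH71 arrays and 0 were lower, against 15.0% and 16.6% of all genes. ASNS, asparagine synthetase, turns aspartate into asparagine and has the TGATGNAA match printed above. Its intensities were 1699 and 1795 in treated cells, against 1384 and 1512 in untreated cells. The distance between the untreated arrays was smaller than the gap between the groups. The log2 fold change was 0.27 ± 0.17 with an interval of -0.13 to 0.67 (limma adjusted p = 0.999).

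The serine pathway runs from PHGDH through PSAT1 to PSPH, and SHMT2 passes serine's carbon to folate in mitochondria. PHGDH was at 1430 and 1214 with CSH71, against 1320 and 1472 without, with interleaved arrays and a log2 fold change of -0.08 ± 0.18. PSAT1 was at 0.10 ± 0.18, PSPH at -0.04 ± 0.18 and SHMT2 at -0.02 ± 0.17, each with overlapping groups. The median of the 5 enzymes was -0.02. The 7 amino acid transporters of the rule, MTHFD2 and ALDH1L2 were not analysed here.

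**Figure D2:**
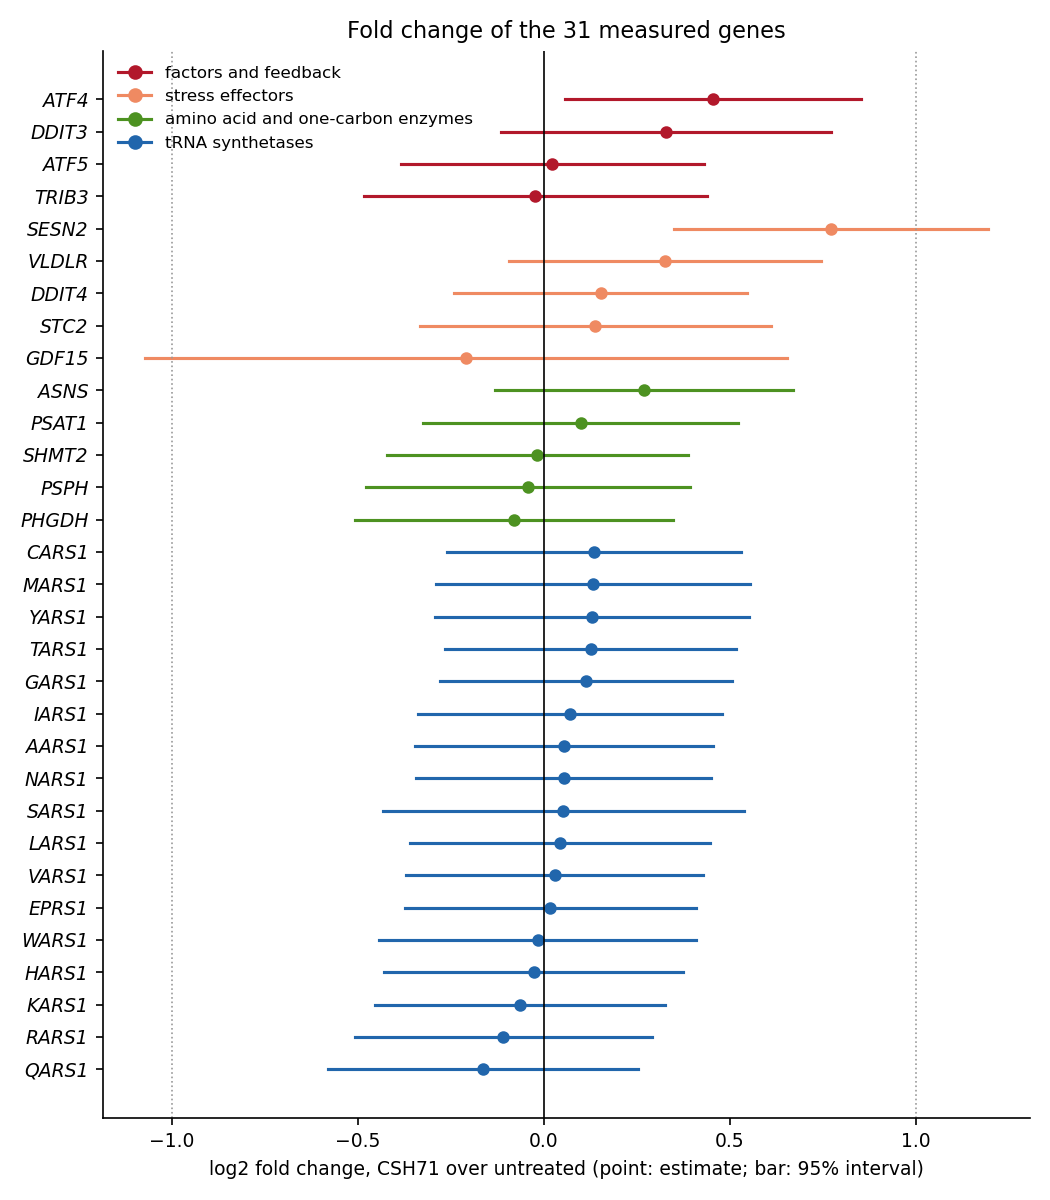
Log2 fold change of CSH71 over untreated (horizontal axis) with its 95% interval for the 31 genes, coloured by role; dotted lines mark a 2-fold difference either way. The intervals of SESN2 and ATF4 alone lie above 0, and those of all 17 tRNA synthetases hold 0.

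The 17 tRNA synthetase genes had the narrowest range of fold changes of the 4 measured role groups. Their log2 fold changes ran from -0.16 to 0.13, with a median of 0.05 and 12 positive and 5 negative. None had an unadjusted limma p under 0.05, and the smallest was 0.385. All 17 intervals lay within a 1.5-fold difference in either direction, against 42.6% of all genes, and 29 of the 31 intervals lay within a 2-fold difference, against 93.7%. The exceptions were SESN2 and GDF15. The intensities of the 17 synthetase genes ran from 333 to 4401, on arrays whose medians over all probe sets were 71.5 to 81.1. Their standard errors were 0.16 to 0.20, against 0.16 to 0.81 for all genes. The comparison with all genes was not matched for intensity.

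Of the 17 genes, 3 were higher on both CSH71 arrays and 3 were lower, where 15.0% and 16.6% of all genes were so. Those higher were CARS1, for cysteine, at 1193 and 1130 in treated cells, against 1027 and 1086 in untreated cells, TARS1, for threonine, and GARS1, for glycine. TARS1 was at 1902 and 1952 with CSH71, against 1731 and 1800 without. GARS1 was at 4129 and 3954 with CSH71, against 3645 and 3825 without. Their log2 fold changes of 0.13, 0.13 and 0.11 were each smaller than their standard errors of 0.17 from limma. Those errors draw on the spread of all genes. Within a group the arrays of these genes differed by less, by 0.04 to 0.08 on the log2 scale.

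The 3 on the other side were QARS1, for glutamine, RARS1, for arginine, and KARS1, for lysine, whose gene serves both cytosol and mitochondria. QARS1 was at 4090 and 3520 in treated cells, against 4108 and 4401 in untreated cells. The first treated array nearly met the lower untreated one. Its log2 fold change was -0.16 ± 0.18 with an interval of -0.58 to 0.25. RARS1 was at 1912 and 1945 with CSH71, against 1979 and 2186 without (log2 fold change -0.11 ± 0.17), and KARS1 was at -0.06 ± 0.16.

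These 3 belong to the multisynthetase complex, an assembly of several cytosolic synthetases on scaffold proteins. The complex was looked at after the values were known. Of its 8 synthetase genes 7 were measured, with a median log2 fold change of 0.02, and of these 0 were higher on both CSH71 arrays and 3 were lower. The 10 genes outside it had a median of 0.05, with 3 higher and 0 lower, where 15.0% of all genes were higher and 16.6% lower. The difference between these groups was not tested. EPRS1, the glutamyl-prolyl enzyme of the complex, was at 3510 and 3376 with CSH71, against 3386 and 3418 without, a log2 fold change of 0.02 ± 0.16. MARS1, for methionine, was at 2112 and 1896 with CSH71, against 1698 and 1959 without. AIMP1, a scaffold of the complex, was at 0.03 ± 0.17. The genes listed with it, AIMP2, EEF1E1, FARSA and FARSB, were not analysed here.

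The remaining synthetases had overlapping groups. YARS1, for tyrosine, was at 2077 and 1959 in treated cells, against 1692 and 2007 in untreated cells (log2 fold change 0.13 ± 0.18). IARS1 (isoleucine), AARS1 (alanine), NARS1 (asparagine), SARS1 (serine), LARS1 (leucine) and VARS1 (valine) lay between 0.03 and 0.07, and WARS1 (tryptophan) and HARS1 (histidine) were at -0.02 and -0.03. WARS1 and VARS1 had another, dimmer probe set each, with log2 fold changes of 0.10 and 0.00. AARS1, GARS1 and IARS1 were at 0.05, 0.11 and 0.07. They were the 3 with a TGATGNAA match among the 14 synthetases that had a promoter entry.

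The synthetases moved with single arrays. CSH71 replicate 2 exceeded replicate 1 for 4 of the 17, with a median log2 difference of -0.06 (replicate 2 minus replicate 1). Untreated replicate 2 exceeded replicate 1 for 16 of the 17, with a median difference of 0.11. Of all 14884 genes, 6992 were higher on CSH71 replicate 2 than on replicate 1, and 8541 on untreated replicate 2. Untreated replicate 1 was the lowest of the 4 arrays for 12 of the 17 genes, and for 27.4% of all genes. Both differences within a group were at least as large as the median difference between treated and untreated cells. Without CSH71 replicate 1, 9 of the 17 fold changes were positive and the median was 0.0037, and without CSH71 replicate 2, 13 were positive and the median was 0.08. Without untreated replicate 1, 8 of the 17 fold changes were positive and the median was -0.001. Without untreated replicate 2, 14 were positive and the median was 0.115. The part of these arrays in the result was not tested further.

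**Figure D3:**
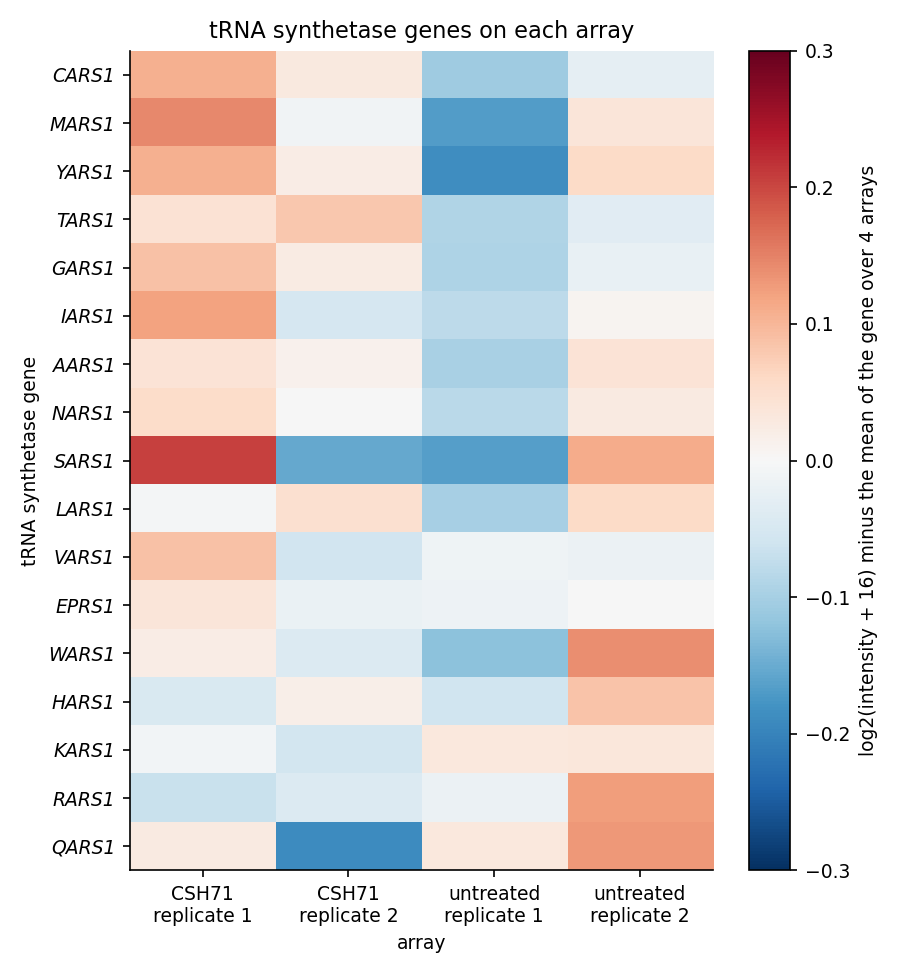
Heat map of the 17 tRNA synthetase genes (rows) on the 4 arrays (columns); colour is log2(intensity + 16) minus the mean of the gene over the arrays. CSH71 replicate 1 is the highest array for 9 of the 17 genes, and untreated replicate 1 is the lowest for 12.

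Other genes linked to ATF4 were read from a list of 30 symbols, of which 16 were measured. The symbols JHDM1D and KDM7A on it name the same gene, measured as KDM7A. None passed at an adjusted p under 0.05, and 3 had an unadjusted limma p under 0.05, all higher with CSH71, where 3.20% of all genes were so. On both treated arrays 10 were higher and 1 lower, against 15.0% and 16.6% of all genes. With a variance prior that follows intensity, 3 of the 16 passed, against 143 of all genes (0.961%), and in that fit the genes' own spread did not enter the p. The median log2 fold change was 0.29, against -0.01 for all genes, with 14 positive and 2 negative. Several of these genes answer to other pathways as well, and the values of ATF3, VEGFA and MAP1LC3B were known when the list was written. Those 3 are the genes with an unadjusted limma p under 0.05, so their count beside 3.20% is no independent support. They are also among the 10 higher on both treated arrays and the 14 positive, and the median of 0.29 includes them. Neither those counts nor the median is independent support either.

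ATF3, a stress-induced partner of AP-1 factors, was at 67.9 and 89.4 in treated cells, against 30.0 and 39.3 in untreated cells. Its arrays were dim, and the groups were far apart (log2 fold change 0.90 ± 0.20, limma adjusted p = 0.864). MAP1LC3B, which encodes the autophagosome protein LC3B, was at 734 and 637 with CSH71, against 449 and 450.5 without. Its log2 fold change was 0.59 ± 0.17, with an adjusted p of 0.928 from limma. VEGFA, an angiogenic factor, was at 1089 and 1136 with CSH71, against 708 and 871 without (0.49 ± 0.18 on the log2 scale). KDM7A, a histone demethylase, was at 202 and 189 with CSH71, against 138 and 155 without (0.38 ± 0.17). The groups of all 4 genes were apart.

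The summed intensity of the 16 genes was 7831 and 7589 on the CSH71 arrays, against 5934 and 6812 on untreated arrays 1 and 2. Untreated replicate 2 exceeded replicate 1 for 14 of the 16, and for 8541 of all 14884 genes. The lowest of the 4 arrays was untreated replicate 1 for 12 of the 16, and for 27.4% of all genes. Without untreated replicate 1, 12 of the 16 were positive and the median was 0.19. Without CSH71 replicate 1, 12 were also positive, with a median of 0.34.

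**Figure D4:**
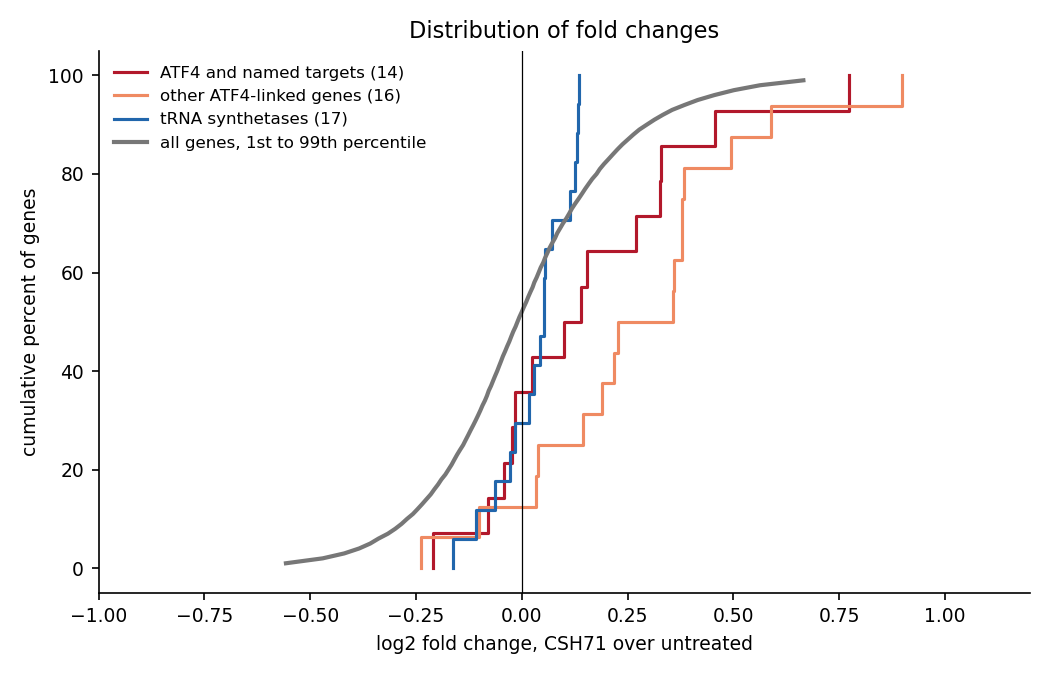
Cumulative percent of genes (vertical axis) by log2 fold change of CSH71 over untreated (horizontal axis) for ATF4 and its named targets, the other ATF4-linked genes, the tRNA synthetases and all genes. The synthetase curve is the steepest, between -0.16 and 0.13, and the curve of the other ATF4-linked genes lies to the right with a median of 0.29.

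Genes that feed into ATF4 or share its inputs had medians a little below 0. Of 16 genes of the eIF2 step 7 were measured, with a median of -0.09 and 0 past the test in either direction. The subunits of eIF2 itself were not analysed here. Of the 4 kinases, EIF2AK3, the PERK sensor of unfolded proteins, was at 471 and 400 with CSH71, against 338 and 402 without (0.23 ± 0.19). EIF2AK4, the GCN2 sensor of uncharged tRNA, was at -0.18 ± 0.20, the RNA-activated EIF2AK2 at -0.16 ± 0.18 and the haem-regulated EIF2AK1 at -0.15 ± 0.18.

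Of 15 genes of endoplasmic reticulum stress, 8 were measured, with a median of -0.07, 2 positive and 6 negative, and 0 past the adjusted threshold. ERN1, which encodes the IRE1 sensor, was at 210 and 175 in treated cells, against 248 and 307 in untreated cells (log2 fold change -0.49 ± 0.19, limma adjusted p = 0.958). XBP1, the factor activated by IRE1 through splicing, was at -0.06 ± 0.19. MANF, a secreted chaperone-like factor, was at 0.24 ± 0.17.

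SESN2's known inputs and outputs include p53 and mTORC1. Of 13 p53 targets, 6 were measured, with a median of -0.11, 2 positive and 4 negative, and 0 past the test. Their median absolute log2 fold change was 0.21, against 0.14 for all genes. BBC3, which encodes the death effector PUMA, was at 0.22 ± 0.19, BAX at -0.26 ± 0.27 and RRM2B, a ribonucleotide reductase subunit, at 0.20 ± 0.21. Of 15 genes of the sestrin and mTORC1 list, 12 were measured, with a median of -0.04 and 0 past the test. TSC1, an mTORC1 inhibitor, was at 0.25 ± 0.17 and NPRL2, of the GATOR1 complex that signals amino acid shortage, at -0.32 ± 0.23. Over these lists and those of the eIF2 step and endoplasmic reticulum stress, ERN1 was the single gene with an unadjusted limma p under 0.05.

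As a check of the label, T-cell genes were measured for 5 of 10 listed symbols, and the summed intensity was 3865 and 3578 on CSH71 arrays, against 3310 and 3545 on untreated arrays, with LCK between 1018 and 1157 and CD2 between 60.9 and 91.6 over the 4 arrays. The CD3 genes were not analysed here. Summed intensities of 2 of 6 B-cell markers were 414 and 444 with CSH71, against 521 and 518 without, those of 5 of 7 monocyte markers 419 and 530 with CSH71, against 575 and 431 without, and those of 5 of 8 epithelial and fibroblast markers 2578 and 2931 with CSH71, against 2836 and 2694 without. No marker was at 0 on an array, no background level is given, and EPCAM lay between 1943 and 2169 on the 4 arrays. Array medians over all probe sets lay between 71.5 and 81.1, and the median absolute log2 difference over all genes was 0.19 between treated arrays and 0.22 between untreated arrays, against 0.17 to 0.24 between a treated and an untreated array.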

How the data were processed

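The authors deposited 1 intensity per probe set and array, on a linear scale. Per the submitters' processing notes the software was Affymetrix Expression Console. How it corrected background, summarised probes and normalized arrays is not given in the sources used here. No detection call or background level comes with the values. Of 53617 probe sets 16098 had 1 gene symbol in the platform annotation, 0 had several and 37519 had none. All 31 genes matched a RefSeq gene (GRCh38.p14) by identifier, with 0 symbols changed. A gene was represented by its brightest probe set. Values were transformed to log2(intensity + 16), not normalized again, and fitted over 14884 genes with limma (version 3.58.1, R 4.3.3), with 2 group means, 2-sided p-values and Benjamini-Hochberg adjustment over all genes. The procedure was tested on simulated data. Sequences are RefSeq promoter entries. Figures were drawn with matplotlib 3.10.9.

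The genes, lists, pseudocount and tests were chosen with earlier results of these data known. Per-array values were to be given for ATF4, SESN2, the 10 other genes with the smallest p, the 4 most negative, and DDIT3, TRIB3, ASNS, CHAC1, GDF15 and EPRS1, and up to 4 genes by p from each other list. ATF5, further synthetases, SESN3, XBP1 and LCK are given outside that rule and were chosen after their values were seen. Alternatives were the replicate block, quantile normalization, median centring, a filter on dim genes, pseudocounts of 1 and 64, an intensity trend in the prior, the mean of probe sets and each array left out.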

Additional observations from a re-analysis of the deposited data

How the results depend on the processing

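SESN2 and ATF4 stayed positive in all 13 other settings, SESN2 from 0.60 to 0.90 and ATF4 from 0.41 to 0.50 on the log2 scale. Most of these settings could not have changed the sign. The blocks, the trend in the prior, the dim filter and the mean of probe sets leave both estimates as they were. As the groups of both genes did not overlap, neither a left-out array nor a pseudocount could turn them. Only quantile normalization and median centring could. SESN2 did not pass in any of them (limma adjusted p from 0.158 to 0.999). The intensity trend in the prior called 1 of the 31 genes, ATF4, at a log2 fold change of 0.46, and 143 genes in all. The other settings called 0 of the 31, with 1 to 2 at an unadjusted p under 0.05. Over all genes limma called 27 with the replicate block, 27 after median centring, 11 without the dimmest 40% and 33 with 64 as the pseudocount. It called 0 with 1 as the pseudocount (768 at an unadjusted p under 0.05) and 0 after quantile normalization (963). With the replicate block the prior degrees of freedom were infinite too, so the genes' own spread did not enter the p-values. Leaving out 1 array gave 0 to 29 calls, with 0 when untreated replicate 1 or untreated replicate 2 was dropped (794 and 609 genes had an unadjusted p under 0.05), and a synthetase median from -0.0010 to 0.115. The median of the 31 genes ran from 0.0074 to 0.115 over those fits. The largest shift of the median of all genes was 0.02, after median centring. The dim filter left out DDIT3, VLDLR and PSAT1. Without a detection call, signal over background limits what the dim genes show.

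The labels state no pairing. The replicate differences of the treated and untreated arrays correlated at -0.29 over genes, so the crossed pairing was added after seeing the data. As a replicate block it called 0 genes, with 1288 at an unadjusted p under 0.05. The block as numbered, in which the genes' own spread did not enter the p, left SESN2 at an adjusted limma p of 0.712 and ATF4 at 1.

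Of the 31 genes, 14 kept their sign in every setting that tested them and 17 changed it in at least 1, all 17 with 0 calls. HARS1 was at 0.0068 after quantile normalization. Median centring gave 0.0034 for WARS1 and 0.0029 for SHMT2, and the mean of probe sets gave 0.0428 for WARS1. Leaving out 1 array turned the rest, with ranges over those fits of -0.0242 to 0.30 for STC2, -0.0144 to 0.16 for IARS1, -0.13 to 0.23 for SARS1, -0.0433 to 0.10 for VARS1, -0.0523 to 0.0980 for ATF5, -0.0110 to 0.0450 for EPRS1, -0.10 to 0.0451 for HARS1, -0.77 to 0.35 for GDF15, -0.15 to 0.12 for WARS1, -0.0826 to 0.0480 for SHMT2, -0.18 to 0.13 for TRIB3, -0.20 to 0.0366 for PHGDH, -0.0149 to 0.12 for AARS1, -0.0010 to 0.11 for NARS1, -0.0364 to 0.12 for LARS1, -0.0317 to 0.23 for PSAT1 and -0.19 to 0.11 for PSPH. The cause was not tested.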
